A study of Mus musculus with 3 samples.

Results

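The haemoglobin-rich erythroid barcodes were 113 of the 4638 cell barcodes in a single-cell RNA sequencing matrix of mouse liver. A barcode was taken when the alpha-globin genes Hba-a1 and Hba-a2 and the beta-globin genes Hbb-bs and Hbb-bt together made up at least 50% of its unique molecular identifiers (UMIs, each standing for 1 captured mRNA molecule) and it held at least 200 UMIs. No minimum of detected genes and no mitochondrial maximum was applied. The 113 barcodes were 2.44% of all barcodes (95% exact Clopper-Pearson interval 2.01 to 2.92%), and all intervals given here cover counting error only.

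All mice were of the Ai14 (LSL-Tomato) strain, which makes a red fluorescent protein after Cre recombination. The non-parenchymal liver cells came from mice 3 h after injection with PBS, with 20a-LNP or with 20mix-LNP. Both LNPs are lipid nanoparticles that carried Cre mRNA at 0.3 mg/kg. Each treatment had 1 library. The livers were perfused and digested, red blood cells were lysed, and stained cells were sorted before droplet 3′ library preparation, per the labels. The sources used here do not say how many mice went into a library, how old they were or which populations were sorted. The barcodes of the matrix end in a suffix, 1, 2 or 3, that marks the library, and nothing in the labels or headers says which suffix is which treatment. Values are therefore given for each suffix and no treatments were compared. With 1 library per treatment and cells that are not replicates, no test between treatments was possible. The haemoglobin-rich and the other barcodes are given side by side, by library for the main genes, with no test and no p-value.

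A reticulocyte is the last stage of red cell development that still holds RNA. The erythroblast has by then expelled its nucleus, so transcription has ended, and the remaining mRNA, ribosomes and mitochondria are broken down over the following days by ubiquitin-dependent degradation and autophagy. Mature red cells carry mainly haemoglobin, a tetramer of alpha and beta chains that each hold a haem group, and enzymes of glycolysis and of defence against oxidation.

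The suffix 1 library held 45 such barcodes of 1211 (3.72%, interval 2.72 to 4.94%). Suffix 2 held 29 of 1701 (1.70%, 1.14 to 2.44%), and suffix 3 held 39 of 1726 (2.26%, 1.61 to 3.08%). The labels state that about 2000 cells were loaded per treatment. The intervals of suffixes 1 and 2 did not overlap, and those of suffixes 1 and 3 did, but they cover counting error only. The spread between preparations was not measured, so no difference between libraries is drawn from them. The libraries held 6144949, 8754827 and 9211407 UMIs. In all, 6 barcode sequences occurred in more than 1 library, and 0 of them belonged to a haemoglobin-rich barcode.

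These barcodes were selected on their globin UMIs, so their globin level is a description. A haemoglobin-rich barcode held between 436 and 21007 UMIs (median 2855), of which 54.5 to 98.4% (median 93.6%) were globin. Only 195 UMIs were non-globin at the median (lowest 19, highest 7299), from 62 detected genes (lowest 18, highest 2772), where the other 4525 barcodes had a median of 3668 UMIs and 1456 genes. Just inside the threshold lay barcodes with 54.5, 58.1 and 65.3% globin. Just outside lay 1 barcode of suffix 1 with 41.0% globin, 181 of its 442 UMIs, and the next had 4.68 and 3.08%. Almost no barcode lay between the haemoglobin-rich ones and the rest: 74 of the 113 were at least 90% globin, 12 were under 75%, and moving the threshold to 25% added 1 barcode. The 113 barcodes held 447262 of the 448905 globin UMIs of the matrix (99.6%).

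**Figure D1:**
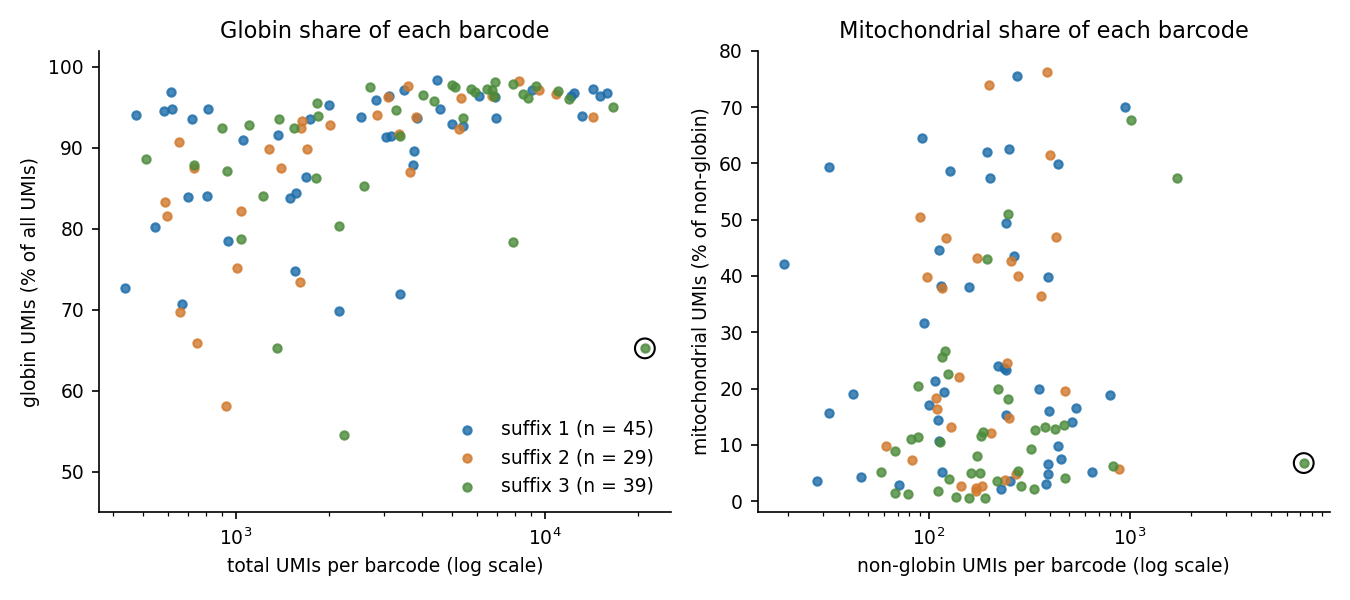
Each point is 1 of the 113 haemoglobin-rich barcodes, coloured by barcode suffix. Left, globin UMIs as a percentage of all UMIs against total UMIs on a log scale; right, mitochondrial UMIs as a percentage of non-globin UMIs against non-globin UMIs on a log scale. The circled barcode, with 21007 UMIs in all and 7299 non-globin UMIs, stands apart from the others.

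Common filters for single cells would have removed nearly all of these barcodes. When 200 or more genes and a mitochondrial share of up to 20% of all UMIs were required, 4 of 113 passed, 108 were under the gene minimum and 3 were over the mitochondrial maximum. One barcode of suffix 3 stood apart, with 21007 UMIs, 2772 genes and 7299 non-globin UMIs, or 20.1% of the non-globin UMIs of all 113. It held 84.4% of their UMIs of Malat1, a nuclear noncoding RNA, and 91.9% of their UMIs of sinusoidal endothelial markers. Values over all 113 barcodes that this barcode moves by over 1.5 times are given with and without it. It held 7299 of the 17895 non-globin UMIs of suffix 3, and levels by suffix include it unless stated. No doublet caller was run on these shallow barcodes, and the UMIs of other cell types' markers in them are given instead.

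The promoter sequences of the alpha-globin gene Hba-a1, the beta-globin genes Hbb-bs and Hbb-bt, and Alas2 are shown because these genes give most of the erythroid UMIs below and because Hbb-bs and Hbb-bt, which differ here, vary against each other between barcodes. Alas2 encodes the erythroid form of 5-aminolevulinate synthase, the first enzyme of haem synthesis. Each is the 250 bases before the RefSeq gene start in GRCm38.p6, written 5′ to 3′ in the direction of transcription. They lie at chr11:32283422-32283671 (plus strand), chr7:103827929-103828178 (minus strand), chr7:103813924-103814173 (minus strand) and chrX:150547167-150547416 (plus strand). Capitals mark, on either strand, GATAA (part of known GATA factor sites), CACCC (Krüppel-like factors), CCAAT (the factor NF-Y) and TATAA (the TATA box).
Hba-a1: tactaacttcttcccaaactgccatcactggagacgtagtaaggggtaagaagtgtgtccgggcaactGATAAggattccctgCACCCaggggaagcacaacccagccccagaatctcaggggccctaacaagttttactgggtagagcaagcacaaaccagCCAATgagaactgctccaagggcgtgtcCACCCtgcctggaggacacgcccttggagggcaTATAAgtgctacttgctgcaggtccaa
Hbb-bs: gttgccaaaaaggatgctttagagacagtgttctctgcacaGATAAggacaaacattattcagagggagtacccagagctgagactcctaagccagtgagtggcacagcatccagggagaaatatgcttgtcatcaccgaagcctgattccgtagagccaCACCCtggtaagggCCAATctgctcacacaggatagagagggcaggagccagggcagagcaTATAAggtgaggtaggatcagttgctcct
Hbb-bt: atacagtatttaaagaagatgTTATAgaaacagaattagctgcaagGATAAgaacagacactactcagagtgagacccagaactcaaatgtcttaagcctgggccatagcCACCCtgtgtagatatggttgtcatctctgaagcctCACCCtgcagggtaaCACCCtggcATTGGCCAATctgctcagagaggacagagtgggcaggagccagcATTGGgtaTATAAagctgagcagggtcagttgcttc
Alas2: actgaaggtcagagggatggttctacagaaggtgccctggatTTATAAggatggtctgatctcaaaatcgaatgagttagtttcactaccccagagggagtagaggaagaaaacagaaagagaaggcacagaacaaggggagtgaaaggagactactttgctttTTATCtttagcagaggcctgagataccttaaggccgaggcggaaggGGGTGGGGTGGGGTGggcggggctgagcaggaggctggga
All 3 globin promoters hold each motif at least 1 time, with 2 CACCC matches in Hba-a1, 1 in Hbb-bs and 3 in Hbb-bt. The Alas2 window holds GATAA 1 time and CACCC 3 times, all on the minus strand, and no CCAAT. Its TTATAA matches TATAA on both strands in an overlap, and no other bases are shared between matches. Over 32851 RefSeq promoter windows of the same 250 bases, 22.6% hold GATAA, 52.0% CACCC, 33.8% CCAAT and 22.8% TATAA, so a match is a description and not a binding site. The Hba-a2 window (chr11:32296242-32296491, plus strand) matches that of Hba-a1 at 247 of 247 aligned bases, whereas those of Hbb-bs and Hbb-bt match at 178 of 243 aligned bases (73.3%).

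Within the globin genes, the alpha genes gave fewer UMIs than the beta genes. The haemoglobin-rich barcodes held 106176 UMIs of Hba-a1, 80804 of Hba-a2, 228577 of Hbb-bs and 31705 of Hbb-bt, so alpha genes gave 41.8% (interval 41.7 to 42.0%). The alpha share was 41.6, 42.6 and 41.6% for suffixes 1, 2 and 3, a range of 1 percentage point between libraries, against 26.0 to 75.4% (median 43.6%) between single barcodes. Hba-a2 gave 43.2% of alpha UMIs, with 42.8, 43.4 and 43.5% in the 3 libraries. The coding sequences of Hba-a1 and Hba-a2 match at 428 of 429 bases and their annotated 3′ untranslated regions at 74 of 74 aligned bases in the GENCODE annotation, so how the authors' counting divided reads between them is uncertain. Hbb-bs and Hbb-bt match at 443 of 444 coding bases but at only 93 of 129 aligned bases (72.1%) of the 3′ untranslated region, where 3′ libraries are read.

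Embryonic globin was not found. Hbb-bh1, Hbb-y and Hba-x, globins of the yolk sac and early embryo, had 0 UMIs, as did Hbb-bh2, which lies among the beta genes. For each gene, 0 UMIs allows up to 3 UMIs among the 483515 of these barcodes. Hbq1a and Hbq1b, the theta-like genes beside the alpha genes, had 18 and 7 UMIs in the haemoglobin-rich barcodes and 0 in all others. Together they were 5431-fold higher per non-globin UMI than elsewhere, with 3 UMIs over all other barcodes as the floor. The lower limit of the exact interval was 4099.

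All further levels are UMIs per 1000000 non-globin UMIs (CPM), summed over a group of barcodes, since globin UMIs chose the members and would set every other level. UMIs count transcript 3′ ends, so these levels are not divided by gene length. The haemoglobin-rich barcodes gave 36253 non-globin UMIs (11576, 6782 and 17895 for suffixes 1, 2 and 3). They held UMIs of 4032 of the 31053 genes of the matrix, globin genes included. They were compared with the other 4525 barcodes, which held 23626025 non-globin UMIs, and with the 474 of those that had 200 to 1000 UMIs. Genes were compared when the mean of their CPM in both groups gave at least 10 expected UMIs in the haemoglobin-rich barcodes, and counted as past the fold at a ratio of at least 2 or at most 0.5. Of 321 such genes, 84 (26.2%) were at least 2-fold higher in the haemoglobin-rich barcodes and 168 (52.3%) at most 0.5 times the level in all others, with a median ratio of 0.457. Without the deepest barcode the same 321 genes had 84 higher, 212 lower and a median ratio of 0.220. This filter lets a gene in through its own high level: 60 of the 84 would have had under 10 expected UMIs at the level of the other barcodes, so they could enter the comparison only by being high. When the 10 expected UMIs were set at the level of the others alone, a choice made after seeing the data, 24 of 408 genes (5.88%) were higher and 296 (72.5%) lower, with a median ratio of 0.234. Counts of genes past the fold against the other barcodes are given below with that second filter, except in the closing account of the processing. It leaves out most erythroid genes, which are rare elsewhere, and these are described by their own values.

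Haem synthesis gave the most abundant erythroid transcript besides globin. Alas2 (chrX:150547375-150570638 in GRCm38) had 865 UMIs in 92 of 113 barcodes, or 33690, 28458 and 15759 CPM in suffixes 1, 2 and 3. The other 4525 barcodes held 4 UMIs of Alas2 in all (0.17 CPM), so the 23860 CPM of the haemoglobin-rich barcodes (Poisson interval 22296 to 25505) were 140930-fold higher (exact interval 54844 to 518406). With so few UMIs elsewhere the size of this ratio moves with the processing, up to 170541 without the deepest barcode. Barcodes of 200 to 1000 UMIs held 0 UMIs of Alas2. Against them the ratio was 2764 with 3 UMIs as the floor, a value that leaves out counting error. All 3 libraries lay far above the level elsewhere. After each barcode was thinned to 100 non-globin UMIs, leaving out 20 shallower haemoglobin-rich barcodes, Alas2 was found in 76 of 93 (81.7%, interval 72.4 to 89.0%) and in 0 of 4525 others (upper bound of the exact interval 0.0815%).

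The last step of the pathway and its iron supply were also abundant. Fech, ferrochelatase, which inserts iron into the ring, had 146 UMIs (4027 CPM against 16.2 elsewhere), and Slc25a37, mitoferrin, which brings iron into the mitochondrion, had 154 (4248 against 51.8). Slc25a39, a mitochondrial carrier, had 63 UMIs, a ratio of 46.8. The enzymes in between were almost absent: Uros had 1 UMI, and Alad, Urod, Cpox and Ppox had 0. Of the 17 genes of the haem and mitochondrial iron list, 8 were detected and 9 had 0 UMIs, and 0 had 10 expected UMIs at the level elsewhere. The list summed to 34866 CPM against 479, and to 49499, 40696 and 23191 CPM in suffixes 1, 2 and 3.

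Ferritin light chain dominated the iron storage genes. Ftl1 had 538 UMIs in 96 barcodes (19178, 16809 and 11288 CPM by suffix, against 1529 in all others), whereas Fth1, the ferritin heavy chain, had 86 UMIs (2372 against 2434 CPM). The ratio of Ftl1 to Fth1 UMIs was 6.26 (interval 4.97 to 7.95) in the haemoglobin-rich barcodes and 0.628 (0.620 to 0.636) in all others. This pair was chosen after its values were seen. Tfrc, the transferrin receptor through which erythroblasts take up iron, had 0 UMIs, as did the endosomal iron transporter and reductase genes Slc11a2 and Steap3.

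Bpgm made up nearly all of the glycolysis list. It encodes bisphosphoglycerate mutase, which makes the 2,3-bisphosphoglycerate that lowers the oxygen affinity of haemoglobin. Bpgm (chr6:34476207-34505613) had 459 UMIs in 59 of 113 barcodes, at 17882, 10321 and 10170 CPM in the 3 libraries against 7.24 CPM elsewhere, a ratio of 1749 (interval 1464 to 2098). The other 13 genes of the list had 8 UMIs in all. Without the deepest barcode the list held 448 UMIs, 445 of them Bpgm, and 3 of its 14 genes were detected in place of 7. Gapdh had 1 UMI (27.6 CPM against 427 elsewhere), Ldha 1 and Aldoa 3, and Pgk1, Tpi1, Pgam1 and Pklr had 0.

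Of the red cell membrane and skeleton, 1 gene stood out. Epb41, protein 4.1, which ties spectrin and actin to the membrane, had 224 UMIs in 74 barcodes (8552, 6783 and 4415 CPM by suffix, against 58.7 elsewhere). The anion exchanger Slc4a1 had 18 UMIs and Tspo2 8, each with 0 in all other barcodes. Beta-spectrin (Sptb) and Epb42 had 1 UMI each, and ankyrin (Ank1) and Rhag had 0. Of the 23 genes, 15 were detected. The water channel Aqp1 (16 UMIs) and Cd47 (16 of 17) came from the deepest barcode.

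Genes of ubiquitin transfer and autophagy summed to 36880 CPM, against 3055 in all others. Of 21 listed genes, 18 were detected. At the level elsewhere 2 had 10 expected UMIs, of which 1, Ubb, was at least 2-fold higher and 1 was lower. Ubb had 305 UMIs (7688, 16072 and 5979 CPM by suffix, against 1266). The ubiquitin ligase gene Mkrn1 had 298 UMIs, a ratio of 86.9 (interval 76.7 to 98.1). The conjugating enzymes Ube2l6 (236 UMIs, ratio 334) and Ube2o (70 UMIs, ratio 185) are known in erythroid cells, Ube2o for clearing ribosomes in reticulocytes. Bnip3l, or Nix, the receptor for mitochondrial autophagy in reticulocytes, had 195 UMIs (7947, 4866 and 3912 CPM by suffix, against 135), and Gabarapl2, an autophagosome protein, had 96 (2648 against 114 CPM).

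Defence against oxidation was uneven between members of one family. The peroxidase Gpx1 had 220 UMIs (6068 CPM against 497), yet it came from only 31 barcodes, and Gpx4 had 5 UMIs. Peroxiredoxin 2 (Prdx2) had 33 UMIs and catalase (Cat) 17, with ratios of 8.32 and 8.18. Carbonic anhydrase Car2 had 22 UMIs in 6 barcodes and Car1 had 0. Of 11 listed genes, 9 were detected. At the level elsewhere 2 had 10 expected UMIs, of which Gpx1 was at least 2-fold higher and Txn1, thioredoxin, at most 0.5 times as high.

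Several abundant transcripts have no part in haem or membrane. Fam46c, a noncanonical poly(A) polymerase also called Tent5c, had 304 UMIs in 77 barcodes, a ratio of 415 (interval 359 to 481). Oaz1, the inhibitor of ornithine decarboxylase, had 336 UMIs (ratio 15.2), Tpt1 453 (ratio 2.54), Sec61g 237 (ratio 16.8) and Fam220a 206 (ratio 197). The gene for poly(A)-binding protein, Pabpc1, had 146 UMIs (ratio 7.35). Among genes with at least 20 UMIs in at least 5 barcodes, Apol11b (22 UMIs against 1 elsewhere, ratio 14337, interval 2318 to 591711) and Rec114 (46 against 3, ratio 9993, interval 3212 to 50229) were among the largest ratios after Alas2. Isg20, an exonuclease induced by interferon, had 66 UMIs, a ratio of 159, at 1728, 2949 and 1453 CPM by suffix.

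**Figure D2:**
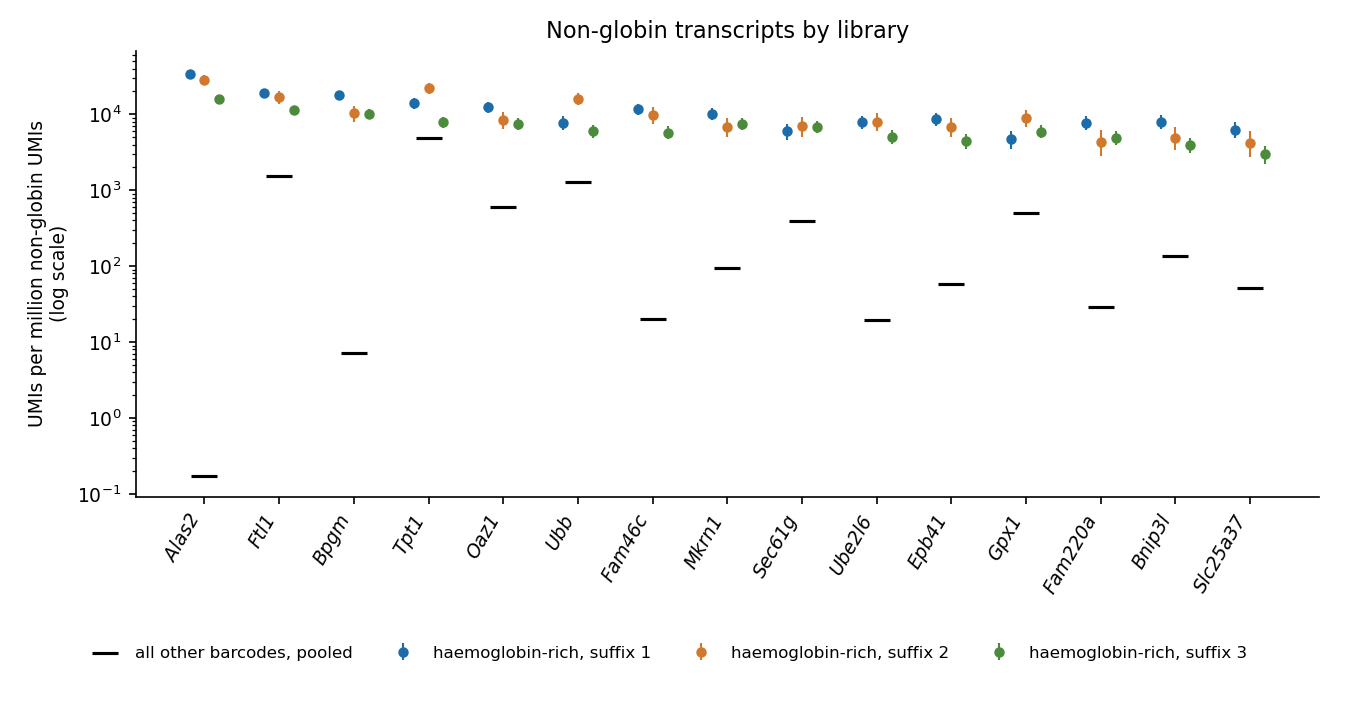
The plot shows 15 abundant protein-coding transcripts of the haemoglobin-rich barcodes outside globin, mitochondrial and ribosomal protein genes and Lars2. Points are UMIs per 1000000 non-globin UMIs (log scale) for each barcode suffix, with exact Poisson 95% intervals; black dashes are all other barcodes pooled. All 3 libraries lie above the dash for every gene, from Alas2 (0.17 CPM elsewhere) to Tpt1 (4915 CPM elsewhere).

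The transcription factors of red cell development were nearly absent. Gata1, Klf1, Nfe2, Gfi1b, Ldb1 and Bcl11a had 0 UMIs and Tal1 had 1, from the deepest barcode. Hemgn, a nuclear protein of erythroblasts, had 2 UMIs and Lmo2 7. The 12 genes summed to 15 UMIs (414 CPM, interval 232 to 682) against 549 CPM elsewhere. At 36253 non-globin UMIs, 0 UMIs allows up to 3 UMIs, so a low level was not detectable at this depth. Proliferation genes gave 9 UMIs from 17 genes (248 against 1422 CPM), with 0 for Mki67, Cdk1 and Pcna, and stem and progenitor genes such as Kit and Gata2 gave 0.

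Nuclear RNA was sparse once the deepest barcode was set aside. Malat1 had 22, 10 and 474 UMIs in suffixes 1, 2 and 3, and 427 of the last were in that 1 barcode. This is 1900, 1474 and 26488 CPM, or 4436 CPM in suffix 3 without it. Over all, Malat1 was at 13958 CPM (2728 without the deepest barcode) against 35978 in all other barcodes and 49566 in those of 200 to 1000 UMIs. Malat1 was seen in 40 of 113 barcodes (35.4%), and at 100 UMIs each in 21 of 93 (22.6%, interval 14.6 to 32.4%) against 3651 of 4525 others (80.7%).

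Gm42418, a noncoding gene model (chr17:39846958-39848788) known to overlap ribosomal RNA sequence, was the most abundant non-globin gene. It had 8797 UMIs and was found in all 113 barcodes, at 24.3% of non-globin UMIs (28.4% without the deepest barcode) against 4.22% in all others and 6.23% in the shallow ones. The suffixes held 29.3, 26.9 and 20.0%. AY036118 lies on the opposite strand within the same interval and had 224 UMIs, a ratio of 7.34. Whether the counting used strand is not stated in the labels or headers, so reads of these overlapping genes may not be separated. Lars2 had 175 UMIs in 80 barcodes (ratio 7.95).

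Mitochondrial transcripts made up 22.5% of non-globin UMIs (interval 22.1 to 22.9%), 26.5% without the deepest barcode, against 10.9% in all other barcodes. Other barcodes of 200 to 1000 UMIs held 23.4%, close to the haemoglobin-rich ones. The 3 libraries held 27.7, 28.1 and 17.0% (24.1% in suffix 3 without the deepest barcode). Of 12 mitochondrial genes with 10 expected UMIs at the level elsewhere, 9 were at least 2-fold higher (5.88% of all 408 genes) and 0 lower, led by mt-Atp6 (1603 UMIs) and mt-Co3 (1540). Single barcodes ranged from 0.524 to 76.3%, with a median of 15.2%.

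Ribosomal protein transcripts went the other way. They made up 4.48% of non-globin UMIs (4.81% without the deepest barcode) against 14.4% in all others and 6.81% in the shallow ones. Of 79 ribosomal protein genes with 10 expected UMIs at the level elsewhere, 71 were at most 0.5 times that level (72.5% of all 408 genes were) and 1, Rpl41, was at least 2-fold higher. Rpl41, the gene of the shortest ribosomal protein, had 300 UMIs in 81 barcodes (10885, 8700 and 6426 CPM by suffix, against 2664 elsewhere). The 5 most abundant ribosomal protein genes, Rpl41, Rps29, Rplp1, Rplp2 and Rpl39, held 37.6% of the ribosomal protein UMIs here and 10.4% in all others. The share set apart these 5 after their values were seen.

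The 20 genes most abundant in the other barcodes, mitochondrial and ribosomal protein genes left out, were chosen for their level there. Of these, 15 were at most 0.5 times as high in the haemoglobin-rich ones, close to the share of all 408 genes (72.5%). Another 2 (Gm42418 and Tpt1) were at least 2-fold higher (5.88% of all 408 genes), and 3 (Fth1, Apoe and Selenop) lay between. Without the deepest barcode Apoe and Selenop were also at most 0.5 times as high, with ratios of 0.242 and 0.0721 (0.661 and 0.691 with it). Tmsb10 and H2-Aa had 0 UMIs, against 1955 and 1899 CPM elsewhere. Thymosin beta 4 (Tmsb4x) had 43 UMIs, actin (Actb) 43, and the translation factor Eef1a1 16, or 1186, 1186 and 441 CPM (242 for Eef1a1 without the deepest barcode) against 10949, 7307 and 3697. The antigen presentation gene Cd74 had 4 UMIs (110 against 3814 CPM).

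The labelled sort was of non-parenchymal liver cells, and markers of 10 other cell types were examined to see how much other RNA the barcodes held. The 91 genes gave 261 UMIs (7199 CPM, or 2798 without the deepest barcode) against 25911 CPM in all others, and 41 of them were detected. Of 113 barcodes, 71 had no such UMI, 34 had 1 or 2, and 8 had at least 3. Sinusoidal endothelial markers gave 186 UMIs, 171 of them in the deepest barcode, which held all 40 UMIs of Lyve1. Without it these markers were at 518 CPM against 5764 elsewhere. Natural killer and T cell markers gave 6 UMIs (166 against 5283 CPM), dendritic markers 18 (497 against 9565 CPM) and Kupffer markers 14 (386 against 1441 CPM). Markers of hepatocytes, which a non-parenchymal preparation should lack, gave 21 UMIs, 11 of them Alb, at 579 CPM against 735 elsewhere (725 without the deepest barcode). Stellate markers had 0 UMIs. Platelet and megakaryocyte markers gave 11 UMIs, 303 against 233 CPM elsewhere (4 UMIs, 138 CPM, without the deepest barcode). They came from 2 of the 10 genes, Clec1b and Nrgn, with 0 UMIs of Pf4 and Ppbp.

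**Figure D3:**
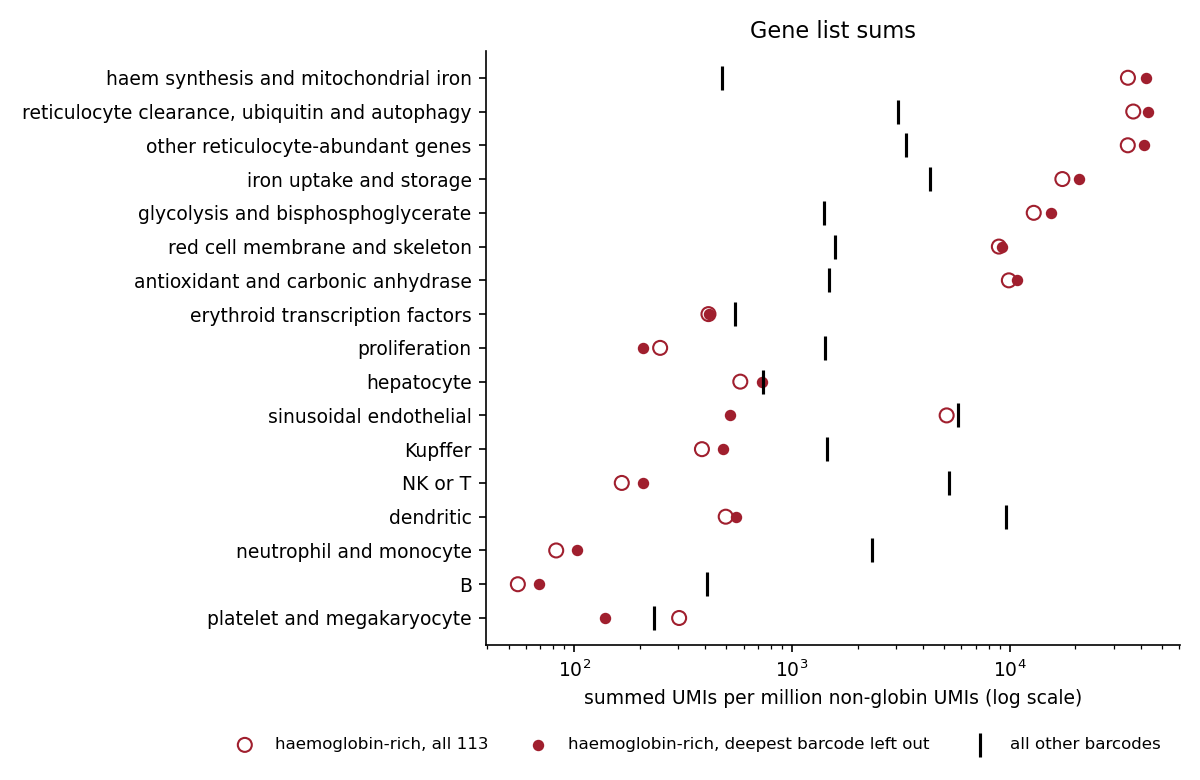
Summed UMIs per 1000000 non-globin UMIs (log scale) of each gene list. Open circles are all 113 haemoglobin-rich barcodes, filled circles leave out the deepest barcode, and black bars are all other barcodes. Haem synthesis, ubiquitin and autophagy, and iron genes lie right of the bars; the endothelial sum moves from 5131 to 518 CPM when the deepest barcode is left out.

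The erythroid genes outside globin held 64491 CPM over 54 genes (haem synthesis, transcription factors, membrane and others, Bpgm included), or 76363 without the deepest barcode, against 2617 CPM in all others and 2026 in the shallow ones. By suffix they held 87163, 72987 and 46605 CPM (66723 in suffix 3 without the deepest barcode). Of the 54, 31 were detected and 23 had 0 UMIs. The suffix 1 value lay above those of suffixes 2 and 3 with or without that barcode; the cause was not tested, and the libraries also differed in mitochondrial share as given above.

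The barcodes differed among themselves in the second beta-globin gene. Hbb-bt gave 12.2% of all beta UMIs, but single barcodes ran from 0 to 26.4%, with a median of 4.32%. Without the deepest barcode, 53 of 112 lay under 4%, and 39 (17, 11 and 11 by suffix) lay at 10% or more. The line at 10% was set after the values were seen, 15 barcodes lay between 8 and 12%, and the sides are ranges of one score, not cell types. The alpha share was 40.3% on the high side and 44.3% on the low side.

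In barcodes with at least 10% Hbb-bt, erythroid genes took a larger share and mitochondrial and ribosomal protein genes a smaller share of non-globin UMIs than in the 73 below. The erythroid sum was 110246 against 43526 CPM, mitochondrial genes 14.9 against 37.6% of non-globin UMIs, and ribosomal protein genes 3.29 against 6.28%. Of 96 genes with at least 20 UMIs, 48 (50%) were at least 2-fold higher and 19 (19.8%) at most 0.5 times as high. With mitochondrial and ribosomal protein genes and Gm42418 out of the denominator, 36 (37.5%) were higher and 30 (31.2%) lower. The high side was also deeper, with a median of 4990 against 1737 UMIs per barcode and 87 against 50 detected genes. Among barcodes with at least the median of 2840.5 UMIs, 28 on each side, the ratio of high to low was 5.11 for Bpgm, 9.24 for Mkrn1, 1.45 for Alas2 and 0.352 for mt-Co3. These genes kept their direction in the deeper barcodes, while the part of depth in the size of the ratios was not tested.

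Bpgm was at 26737 CPM on the high side and 4353 on the low side, a ratio of 6.14 (interval 4.70 to 8.14), with 8.39, 6.08 and 5.73 in suffixes 1, 2 and 3. Mkrn1 had a ratio of 11.2 (7.31 to 18.02) and was 11.1, 7.36 and 15.4 by suffix. Gpx1 had a ratio of 11.2 as well, with 174 of its 190 UMIs on the high side. Cd24a, a surface protein of erythroblasts, had 44 against 2 UMIs, Eif1 34 against 1, Prdx2 31 against 1 and Fam213a 37 against 2. On the high side these UMIs came from only 15, 10, 8 and 7 of the 39 barcodes.

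Alas2 differed less, at 36561 against 21423 CPM (ratio 1.71, interval 1.48 to 1.97), and Ftl1 had a ratio of 1.15 (0.960 to 1.37). Fech had a ratio of 3.28, Bnip3l 3.60 and Fam46c 2.84, each above 1 in all 3 libraries. Tpt1 was lower on the high side, at 9684 against 20199 CPM, as were Rplp1 (ratio 0.316), mt-Cytb (0.332) and Rpl41 (0.587). The ratio of Rpl41 was 1.03, 0.254 and 0.362 by suffix, so Rpl41 was not lower in suffix 1. With the reduced denominator the ratio of Bpgm was 3.97, that of Alas2 1.10 and that of Ftl1 0.740, on the other side of 1. Across the 112 barcodes, which share 3 libraries, the Hbb-bt share had a Spearman correlation of 0.72 with Bpgm per non-globin UMI, 0.74 with Mkrn1, 0.44 with Alas2, 0.61 with total UMIs and -0.30 with the mitochondrial share, given as a description.

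**Figure D4:**
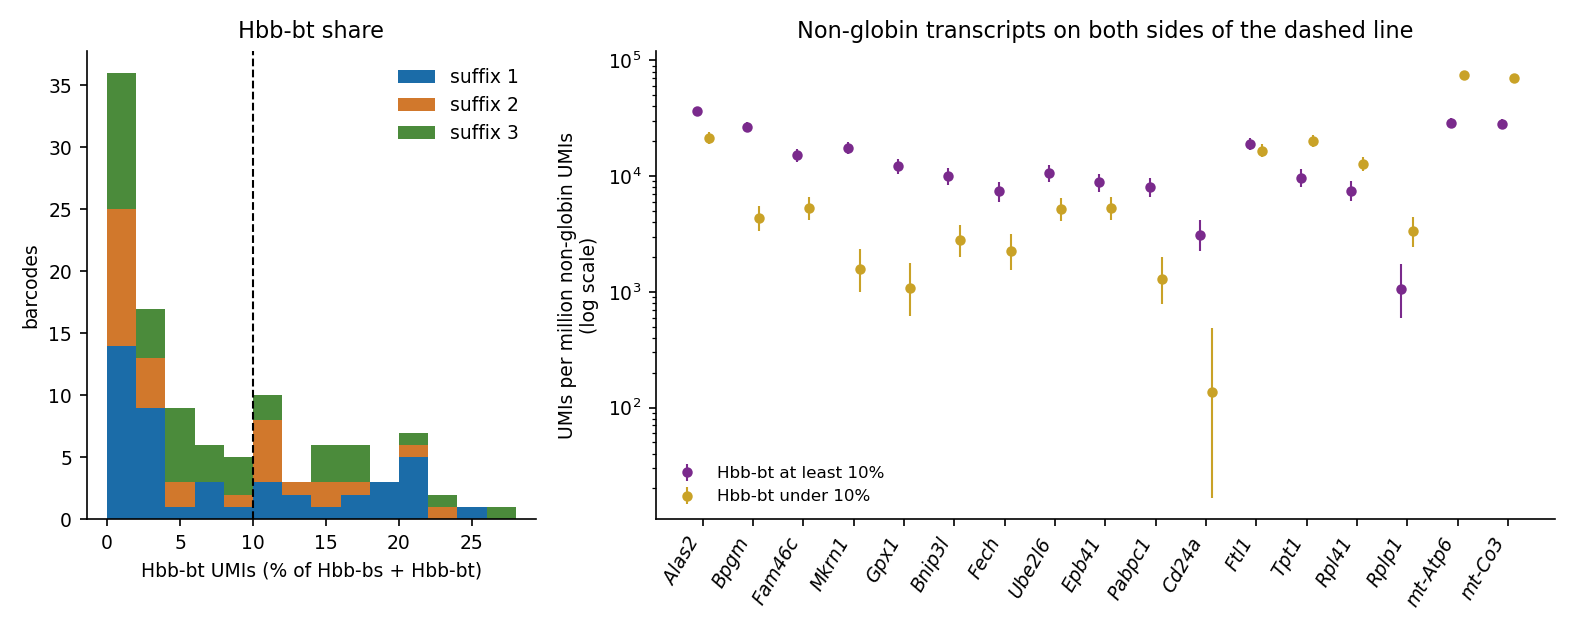
Left, number of haemoglobin-rich barcodes by Hbb-bt UMIs as a percentage of beta-globin UMIs, stacked by suffix, with the dashed line at 10% and the deepest barcode left out. Right, UMIs per 1000000 non-globin UMIs (log scale) with exact Poisson 95% intervals for 17 genes chosen after their values were seen, in the 39 barcodes right of the line (purple) and the 73 left of it (yellow); Bpgm is at 26737 against 4353 CPM and mt-Co3 at 28281 against 71001 CPM.

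A smaller set was dominated by mitochondrial transcripts. In 16 of 112 barcodes (9, 4 and 3 by suffix) mitochondrial genes made up at least 50% of non-globin UMIs. With mitochondrial UMIs also left out of the denominator, these 16 held 19567 CPM of Alas2 (interval 14377 to 26020) against 41768 (38904 to 44787) in the other 96, and 42465 against 111646 CPM of the erythroid sum. They held more markers of other cell types on the same scale, 13739 CPM (33 UMIs) against 2541 (48 UMIs), and their median Hbb-bt share was 1.78 against 5.89%. Of these 33 UMIs, 27 came from 3 of the 16 barcodes and 9 barcodes had none; without those 3 barcodes the level was 4717 CPM (interval 1731 to 10267). The part of other cells' RNA in these differences was not tested.

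**Figure D5:**
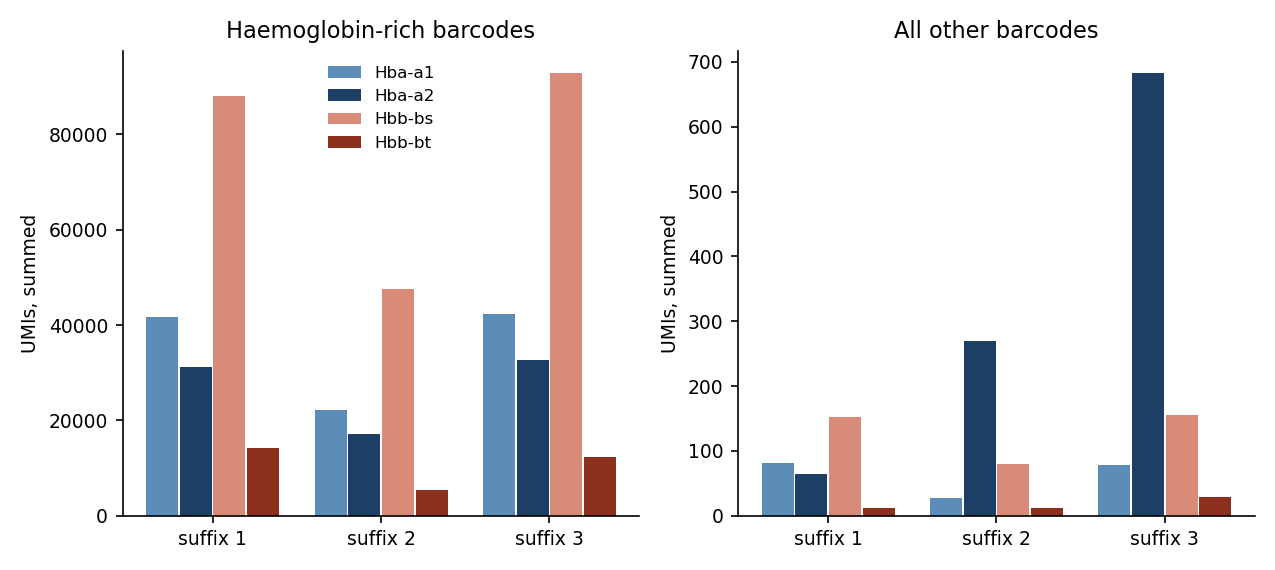
Summed UMIs of the 4 adult globin genes by barcode suffix, in the haemoglobin-rich barcodes (left) and in all other barcodes (right, on its own scale). The 4 genes keep similar proportions in the 3 libraries on the left; on the right Hba-a2 reaches 269 and 683 UMIs in suffixes 2 and 3, against 65 in suffix 1.

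Outside the haemoglobin-rich barcodes globin was rare. Of the other 4525 barcodes, 945 (20.9%) held a globin UMI, and these gave 1643 globin UMIs, beside 23626025 others. Beta-globin UMIs numbered 164, 91 and 184 and Hba-a1 81, 28 and 78 in suffixes 1, 2 and 3. Hba-a2 did not follow them, with 65, 269 and 683 UMIs. Its number per Hba-a1 UMI was 0.80, 9.61 and 8.76, whereas in the haemoglobin-rich barcodes of the same libraries it was 0.748, 0.768 and 0.771. In suffix 1 a single barcode held 49 of the 65 Hba-a2 UMIs. The barcode of suffix 1 just under the threshold held 181 of the 310 globin UMIs there. The value of 0.80 may therefore not stand for the other barcodes of suffix 1. Reads of any RNA that holds alpha-globin sequence could be counted as Hba-a2. The labels do not give the sequence of the delivered Cre mRNA, and whether these UMIs are transcripts of the mouse gene was not tested.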

How the data were processed

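The authors deposited raw UMI counts, not normalized, of 31053 genes in 4638 barcodes as 1 matrix. Per the file headers it was written by Cell Ranger 3.1.0, and the submitters' processing notes give mm10 as the build. STAR, Seurat and edgeR are also named in the submitters' processing notes, with no role or version. The sample sheets were not used. The members and lists were chosen with earlier results of these data known.

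Raw UMIs were summed over the barcodes of a group and divided by their non-globin UMIs (CPM). CPM carry exact Poisson and shares exact Clopper-Pearson 95% intervals, and ratios an exact interval conditional on the summed UMIs. Genes named were the 25 with the most UMIs in the haemoglobin-rich barcodes (mitochondrial and ribosomal protein genes left out), the 15 with the largest ratio among those with at least 20 UMIs in at least 5 barcodes, the most abundant of each list, and defining list genes at 0. Genes of the Hbb-bt split, the genes abundant elsewhere and the ribosomal and mitochondrial genes were chosen after their values were seen. 1 of the listed genes, Ahsp, was not matched, and some genes that the rule or lists name are not reported here. Positions came from GENCODE M21 (GRCm38) and promoters from RefSeq. Python 3.11.15, numpy 2.4.6, scipy 1.17.1, pandas 2.3.3, matplotlib 3.10.9 and Biopython 1.88 were used, and the counting steps were tested on simulated data.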

Additional observations from a re-analysis of the deposited data

Results flagged for a closer look

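Hba-a2 gave 269 UMIs in the other barcodes of suffix 2 and 683 in those of suffix 3, a signal outside the haemoglobin-rich barcodes that exceeded Hba-a1 there. It was found in 17 of 1166 barcodes in suffix 1 (1.46%, exact interval 0.852 to 2.32%), 195 of 1672 in suffix 2 (11.7%, 10.2 to 13.3%) and 423 of 1687 in suffix 3 (25.1%, 23.0 to 27.2%). Most of these barcodes held no other globin UMI: 14, 177 and 365. In suffix 1 a single barcode held 49 of the 65 UMIs, and the highest count in a barcode was 10 in suffix 2 and 15 in suffix 3. Barcodes with an Hba-a2 UMI had a median of 7305, 3994 and 5105 UMIs. The median over all 1166, 1672 and 1687 barcodes, those with Hba-a2 included, was 3290.5, 3469.5 and 4395. Hba-a1 and Hba-a2 are nearly identical in sequence, and any other RNA with alpha-globin sequence could be counted as Hba-a2. The labels do not give the sequence of the delivered Cre mRNA, and which RNA gave these reads was not tested.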

How the results depend on the processing

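No paired comparison of treatments was possible because each treatment has 1 library and the labels give no shared replicate numbers. The haemoglobin-rich and the other barcodes both occur in every library, so they are paired by library. They are set side by side by suffix and, by plan, without a test. Shallow barcodes limit most values: at a median of 195 non-globin UMIs, transcripts near 1 UMI per barcode are seen or missed by chance, and the deepest barcode or a small subset sets several sums. The split by Hbb-bt share, its alternatives, and the gene counts without the deepest barcode or filtered on the other barcodes' level were added after the data were seen.

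The number of barcodes was 74 at a globin share of at least 90% and 4 under the filter on genes and mitochondrial UMIs, and leaving out 1 suffix each gave 68 to 84. The alpha share was 38.0% under that filter, 44.6% with barcodes weighted equally and 42.0% without the deepest barcode, and 41.6 to 41.9% without 1 suffix. The erythroid sum was 36508 CPM under the filter, 86081 and 100060 at globin shares of at least 75 and 90%, 69167 with equal weights, 76363 without the deepest barcode, 88320 with mitochondrial and ribosomal protein genes out of the denominator, 4835 with globin in it, and 53856 to 81926 without 1 suffix. The mitochondrial share was 14.7% under the filter, 18.01% at a globin share of at least 90%, 26.5% without the deepest barcode and 20.1 to 27.9% without 1 suffix.

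Malat1 was at 42484 CPM under the filter, 2888 and 2220 at globin shares of at least 75 and 90%, 3459 with equal weights, 2728 without the deepest barcode, 19114 and 1046.5 with the other denominators in the same order, and 1743 to 19613 without 1 suffix. Markers of other cell types were at 18021, 2595, 1980, 3482, 2798, 9859 and 540 CPM under the same settings, and 2342 to 9604 without 1 suffix. With the first filter, 84 of 321 genes were past 2-fold higher and 168 lower. That count was 55 higher and 92 lower with at least 20 expected UMIs, and 371 lower with at least 5. It was 98 lower with mitochondrial and ribosomal protein genes out of the denominator. Fewer or more genes were compared in each setting and genes could enter by being high, so these counts describe the filter. With 10 expected UMIs at the level of the other barcodes, 24 of 408 genes were higher and 296 lower. The ratio of Bpgm between the sides was 9.25 and 4.17 at lines of 5 and 15%, 4.21 with the deepest barcode kept, 3.97 with the reduced denominator and 5.27 to 7.76 without 1 suffix.

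Each of 31 named genes had its ratio recomputed under 11 settings, and 68 of these 341 values moved by over 1.5 times. The recomputed ratios count at least 3 UMIs elsewhere, so some of these moves come from that floor. Alas2, Rec114 and Apol11b had 0 UMIs in barcodes of 200 to 1000 UMIs, and Apol11b started from 4779 where its ratio without the floor is 14337. Of the 30 genes past 2-fold, 3 changed direction, all under the filter that leaves 4 barcodes, the deepest among them: Malat1 1.29, Tpt1 0.477 and Aldh1a1 0. Fth1, at 0.975, lay above 1 under 5 settings (0.619 to 1.65). Alas2 was 8562 and 3434 at globin shares of at least 75 and 90%, where barcodes of lower share count among the others, and 52274 under the filter. Against barcodes of 200 to 1000 UMIs, which held 0 UMIs of Alas2, the ratio to the floor was 2764.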

Other observations

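A further list of 24 genes, set up as abundant in reticulocytes with earlier results of these data known, had 22 detected. Over all genes of the matrix, 4032 of 31053 were detected. At the level elsewhere 3 had 10 expected UMIs in the haemoglobin-rich barcodes: Oaz1 was at least 2-fold higher, Btg2 at most 0.5 times as high and Eif1 between. Besides Fam46c, Oaz1 and Isg20, the list held Rsad2, an antiviral gene induced by interferon, with 48 UMIs in 22 barcodes (16, 14 and 18 UMIs in suffixes 1, 2 and 3; 1324 CPM against 63.2 in all others). Bcl2l1, the survival factor Bcl-xL, had 28 UMIs in 21 barcodes (772 against 31.9 CPM), and Hagh, a glyoxalase, had 18 (497 against 19.1 CPM). Btg2, at 525 CPM in all others, had 1 UMI.

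Aldh1a1, an aldehyde dehydrogenase, had 20 UMIs in 11 haemoglobin-rich barcodes and 45 UMIs in all other barcodes (552 against 1.90 CPM). Across 112 barcodes the Hba-a2 share of alpha UMIs had a Spearman correlation of 0.57 with the Hbb-bt share of beta UMIs (0.40, 0.63 and 0.70 within suffixes 1, 2 and 3). The barcodes share libraries, depth differs between them, and the division of reads between Hba-a1 and Hba-a2 is uncertain, so this is a description only.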
